A study of Caenorhabditis elegans with 4 samples.

Results

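Every region called for NHR-67 that the deposited lists place on chromosome IV of Caenorhabditis elegans was described. These are 7 of the 113 regions of the combined list, 5072 of the 30000 regions of ChIP replicate 1 and 3296 of the 18783 regions of ChIP replicate 2. A called region need not be a binding site. What set the list lengths, exactly 30000 in replicate 1, is not stated, and they bear on the densities and shared shares below. The data come from chromatin immunoprecipitation and sequencing (ChIP-seq) of hermaphrodite larvae at the L3 stage, grown at 20 °C, in strain OP373. The worms carry the mutant allele unc119(ed3) and the transgene wgIs373, in which nhr-67 is fused to TY1, EGFP and FLAG tags and which also carries unc119. Per the labels the transgene was introduced by bombardment, and the genotype lists no mutation of the worm's own nhr-67. The 2 ChIP samples and the 2 input samples share this genotype, stage and temperature, and no sample without the transgene is among them. Chromatin came from whole larvae, so the cells in which the tagged protein was bound cannot be told apart. The labels do not say whether the replicates were separate cultures, and the lists give no read counts, so the depth behind a region is unknown.

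NHR-67 is a nuclear receptor of the tailless/TLX family, a group of DNA-binding proteins best known as transcriptional repressors in developing nervous systems. In the L3 larva it acts in the anchor cell, the uterine cell that stops dividing and invades the vulval tissue below it. The autosomes of this worm have a gene-dense centre with little recombination and repeat-rich arms, and chromosome IV is also known for broad clusters of 21U-RNA (piRNA) genes. In the annotation of assembly WBcel235, nhr-67 itself is on IV. The regions are on another build, WormBase WS220, so the genes and sequences at them were not analysed here. All coordinates below are 1-based on WS220.

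The 7 combined regions were few for the length of the chromosome. The lists span IV from 49301 to 17492825, 17.4 Mb, which is 21.2% of the summed span of the 5 autosomes. IV held 7 of the 87 autosomal regions of the combined list, a share of 8.05% (95% exact Clopper-Pearson interval 3.30 to 15.9). That is 0.401 regions per Mb, or 1 region per 2.49 Mb. On V the density was 0.622 per Mb, on I 1.13, on II 1.44 and on III 2.03. IV thus had the lowest density of the 5 autosomes, 0.380 times its share of the span, and the interval lies below that share. V was also below its span share of 25.4%, with 13 of 87 regions (14.9%, 8.20 to 24.2), 0.589 times that share. The value of IV rests on the list as a whole. In the lowest-numbered 50% of the list IV held 5 of 34 autosomal regions (14.7%, 4.95 to 31.1). That is over 1.5 times the 8.05% above, with an interval that holds the span share. The intervals here and below treat regions as independent and cover counting error only, and no test was made.

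The regions that IV did have stood high in the combined list. Their peak numbers, the authors' own numbering, were 16, 18, 22, 24, 34, 76 and 82, with a median of 24. The medians of the other autosomes lay between 57 and 71.5. The lowest numbers on I, II and III were 8, 7 and 2, so IV held none of the very first. All combined regions carry the same score of 2.82, and what orders their numbers is not stated.

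Combined region 16 lay between 4749759 and 4750348. It contained region 66 of replicate 1 whole, and region 42 of replicate 2, the lowest number that replicate had on IV. The midpoints of these replicate regions were 6 bp apart. Another region of replicate 2 touched combined region 16 as well, as was also the case for combined region 22. Combined region 18, between 1094265 and 1094457, was the only narrow one, with 193 bp against 590 bp for the other 6. It lay inside region 30 of replicate 1 and region 108 of replicate 2, whose midpoints were 29 bp apart. These 2 sites had low numbers in both replicates.

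Combined region 22, between 14033647 and 14034236, was the only combined region in the right segment of the chromosome, of 3 equal segments. It met region 21 of replicate 1, the lowest number of that list on IV, and region 82 of replicate 2. Their midpoints were 121 bp apart, the widest offset among the 7 sites. Combined region 24, between 654682 and 655271, met region 23 of replicate 1 but only region 730 of replicate 2. The replicates thus placed this site at unlike heights, though its score was at the ceiling in both.

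Combined region 34, between 1658985 and 1659574, met region 47 of replicate 1 and region 113 of replicate 2, with midpoints 7 bp apart. Combined regions 76 and 82 stood lower in replicate 1. Region 76, between 6756371 and 6756960, met number 245 there and number 881 in replicate 2, with midpoints 4 bp apart. Region 82, between 8431468 and 8432057, met number 318 in replicate 1 and number 53 in replicate 2, with midpoints 92 bp apart. All 7 sites were found in both replicates, and all were at the score ceiling of both lists, 2.91 in replicate 1 and 3.53 in replicate 2. How the combined list was made is not stated, but the headers' method field names SPP followed by IDR, which scores agreement between replicates. The list therefore probably rests on these same replicates, and presence in both would then follow from how its sites were selected. That presence therefore describes the sites and is not taken as independent evidence for them.

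Along the chromosome the 7 regions were spread unevenly. The lists' span was cut at 5863809 and 11678318 into a left, a middle and a right segment of 5.81 Mb each. The left segment held 4 combined regions, the middle segment 2 and the right segment 1. With 7 regions the interval of the share in the left segment, 57.1%, runs from 18.4% to 90.1%. The closest neighbours, regions 24 and 18, were 439 kb apart, and the widest gap, between regions 82 and 22, measured 5.60 Mb. No combined region lay in the last 3.46 Mb of the span. None of the 7 belonged to a local cluster of combined regions, whereas I, II, III and V each had neighbours whose starts were between 200 bp and 3198 bp apart.

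In the much longer replicate lists the segments held closer to equal shares, though not equal ones in replicate 1. In replicate 1 the left segment held 1847 regions (36.4%, 95% exact interval 35.1 to 37.8), the middle segment 1574 (31.0%, 29.8 to 32.3) and the right segment 1651 (32.6%, 31.3 to 33.9). In replicate 2 the segments held 1107 (33.6%, 32.0 to 35.2), 1071 (32.5%, 30.9 to 34.1) and 1118 (33.9%, 32.3 to 35.6). Replicate 1 was thus densest in the left segment, 318 regions per Mb against 271 in the middle, while the segments of replicate 2 differed by less than their intervals. On the other autosomes the middle segment held from 30.4% (III) to 33.9% (I) of the replicate 1 regions and from 32.0% (III) to 36.0% (I) of those of replicate 2. IV lay within these ranges in both replicates.

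The 1000 best regions of each replicate, and those at the score ceiling, showed no concentration in a segment that both replicates had in common. Of the 160 IV regions among the 1000 best nuclear regions of replicate 1, 54 lay in the left segment, 48 in the middle and 58 in the right. Of the 162 in replicate 2 the segments held 52, 58 and 52. Among regions at the score ceiling, replicate 1 had 16, 17 and 20 from left to right, and replicate 2 had 85, 101 and 89. These sets had no surplus in the left segment, where 4 of the 7 combined regions lay. Regions shared by both replicates did lean to the left segment, which held 39.0% (35.3 to 42.9) of those of replicate 1 and 38.4% (34.6 to 42.2) of those of replicate 2. A lean of this size was not particular to IV. On the other autosomes the fullest segment held from 36.2% (V, middle) to 41.2% (II, right) of the shared regions of replicate 1. In replicate 2 it held from 36.7% (I, middle) to 41.0% (II, right). Of the 10 lowest-numbered regions of IV the left segment held 5 in replicate 1 and 6 in replicate 2.

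**Figure D1:**
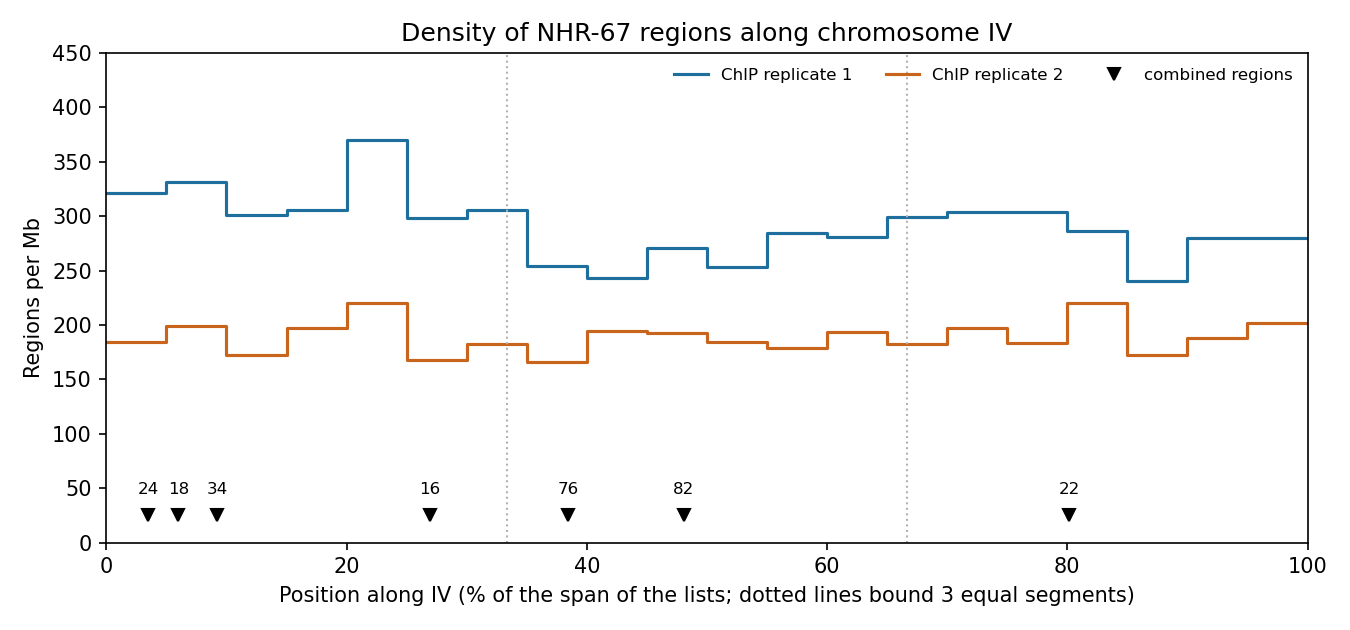
Density of called regions along chromosome IV in 20 equal bins of the span (regions per Mb, lines) for ChIP replicates 1 and 2. Triangles mark the 7 combined regions with their peak numbers, and dotted lines bound the 3 segments. The lines range from 241 to 370 regions per Mb in replicate 1 and from 166 to 220 in replicate 2, and 4 of the 7 triangles are in the left segment.

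In bins of 5% of the span, as the density plot along IV shows, replicate 1 ranged from 241 to 370 regions per Mb with a median of 292. Replicate 2 ranged from 166 to 220 with a median of 186. The bin from 20% to 25% of the span was the highest in replicate 1, with 323 regions, and tied for the highest in replicate 2 with the bin from 80% to 85%, with 192 regions each. A single window of 25 kb, described below, gave 25 and 26 of these regions. Without it the bin held 298 regions of replicate 1 and 166 of replicate 2, where the median bins held 255 and 162.5. The lowest bins differed, 85% to 90% of the span in replicate 1 and 35% to 40% in replicate 2.

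Of the successive stretches of each replicate list, the 200 best were where IV fell furthest below its span share. Regions were ordered by peak number after regions of the mitochondrial genome had been left out, so that the best nuclear region has order 1. Among the 200 best of replicate 1, IV held 17 of 157 autosomal regions (10.8%, 95% exact interval 6.44 to 16.8), below its span share of 21.2%. Among the 200 best of replicate 2 it held 22 of 147 (15.0%, 9.62 to 21.8), and there the interval reaches the span share. Among the 50 best IV held 5 of 31 in replicate 1 (16.1%, 5.45 to 33.7) and 3 of 30 in replicate 2 (10%, 2.11 to 26.5). A low share was not particular to IV. V also held 22 of 147 among the 200 best of replicate 2, below its own span share of 25.4%. In replicate 1 V held 32 of 157 (20.4%, 14.4 to 27.5), an interval that holds that share.

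Further down, the share of IV came closer to its span share in both lists. From order 201 to 500 it was 23.8% (18.6 to 29.6) in replicate 1 and 19.0% (14.3 to 24.4) in replicate 2. From 501 to 1000 it was 20.5% and 22.0%, and from 1001 to 2000 it was 20.0% and 21.8%. Over the whole lists IV held 20.3% (19.8 to 20.8) of the autosomal regions of replicate 1 and 21.4% (20.7 to 22.1) of those of replicate 2. The interval of replicate 1 lies just below the span share of 21.2%, as does that of its regions beyond order 20000 (20.0%, 19.2 to 20.9), while that of replicate 2 holds it. The shortage over the whole of replicate 1 was thus small beside that among its 200 best.

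In as many of the best regions as the combined list holds, 113 per replicate, IV had 11 regions in each. Those are shares of 12.8% (6.56 to 21.7) and 13.9% (7.16 to 23.5) of the autosomal ones, both above the 8.05% of the combined list and both with intervals that hold the span share. Order by peak number picks among tied scores here, since 386 nuclear regions of replicate 1 and 1670 of replicate 2 are at the ceiling. Counting all autosomal regions at the ceiling instead, IV had 53 of 314 in replicate 1 (16.9%, 12.9 to 21.5) and 275 of 1359 in replicate 2 (20.2%, 18.1 to 22.5).

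**Figure D2:**
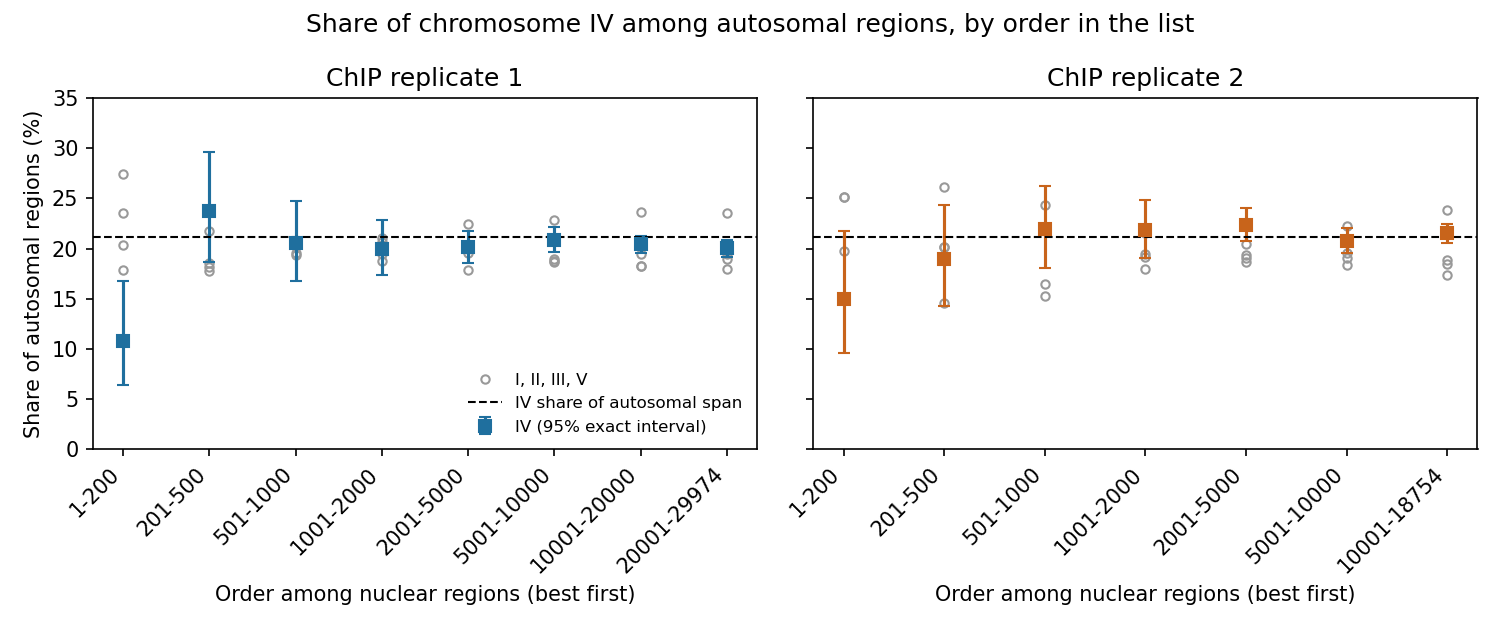
Share of IV among autosomal regions (%) in successive bins of order within each replicate list, with 95% exact intervals; open circles give I, II, III and V and the dashed line the share of IV in the autosomal span, 21.2%. In the bin of the 200 best, IV lies at 10.8% in replicate 1 and 15.0% in replicate 2, and from order 501 on it stays near the dashed line.

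The scores themselves were ordinary on IV. In replicate 1 the median score of its regions was 0.239 (middle 50% of values 0.119 to 0.460), and on the other autosomes the medians ran from 0.224 to 0.235. In replicate 2 the median was 0.932 (0.542 to 1.92), against 0.875 to 0.971 elsewhere. The share of regions at the ceiling was 1.04% in replicate 1, the lowest of the 5 autosomes, where the others ran from 1.07% to 1.71%. In replicate 2 it was 8.34%, above the 7.44% of V and below the other 3. The score is the authors', on a scale that the labels and headers do not state.

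Of the 10 IV regions with the lowest peak numbers in each replicate, 8 had a counterpart in the other replicate and 5 belonged to combined regions. A region counted as shared when it overlapped one of the other replicate by at least 50% of the shorter of them. In replicate 1, region 74, between 17278383 and 17278786, met number 1209 of replicate 2, which was at the ceiling there (3.53). Regions 93 (13240460 to 13240863) and 117 (11127442 to 11127845) met numbers 7509 and 4139, with scores of 1.20 and 2.05. Regions 86 (14463998 to 14464401) and 94 (4237018 to 4237421) had no counterpart, and the nearest midpoints of replicate 2 were 2.60 kb and 0.637 kb away. These 5 had higher numbers in replicate 2, or none, than the 5 that belonged to combined regions, where the highest was 730. By score, however, the pair of region 74 was at the ceiling in both lists, as the combined sites were. What orders numbers among tied scores is not stated.

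Replicate 2 showed the same mixture. Its regions 58 (9511126 to 9511605), 84 (3864729 to 3865208) and 85 (14984693 to 14985172) met numbers 1410, 2379 and 4516 of replicate 1, where the scores were 1.35, 1.02 and 0.674. Their midpoints nevertheless lay 16, 2 and 39 bp from those of replicate 1. Regions 95 (3873523 to 3874002) and 102 (2177517 to 2177996) had no counterpart, and the nearest midpoints of replicate 1 were 1.49 kb and 2.50 kb away.

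Over the full lists IV shared 661 of its 5072 regions of replicate 1 with replicate 2, or 13.0% (95% exact interval 12.1 to 14.0), beside 13.2% of all autosomal regions of that list. In the other direction 657 of 3296 regions were shared, 19.9% (18.6 to 21.3), beside 21.2% of all autosomal regions of replicate 2. V lay lower in both directions, at 10.9% and 18.2%, and I, at 14.6% and 23.6%, and III, at 14.8% and 22.8%, lay higher. II was at 13.0% and 22.3%. IV was therefore within the range of the other autosomes. The regions of replicate 2 covered 8.52% of the span of IV and those of replicate 1 covered 11.2%. How much of the sharing such coverage alone would give was not tested.

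Within IV, sharing was most frequent in the left segment. There 258 of 1847 regions of replicate 1 were shared (14.0%, 12.4 to 15.6), against 12.9% in the middle and 12.1% (10.6 to 13.8) in the right segment. For regions of replicate 2 they were 22.8% (20.3 to 25.4), 19.1% (16.8 to 21.6) and 17.9% (15.7 to 20.3). The order of the segments was the same in both directions, which rest on the same overlaps. The intervals of the left and right segment overlap in replicate 1, and barely miss each other in replicate 2. Replicate 1 was also densest in the left segment, and the part of that density in this order was not tested. The densest window of IV, described below, lies in the left segment and held 12 and 13 of its shared regions. Shares without that window were not computed.

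Sharing depended on the place in the list. Among IV regions of the 500 best of replicate 1, 23 of 76 had a counterpart anywhere in replicate 2 (30.3%, 20.2 to 41.9). From order 501 to 1000 the share was 15.5% (8.51 to 25), and beyond 20000 it was 11.5% (10.0 to 13.2). In replicate 2 it was 34.3% (23.3 to 46.6) in the 500 best, 30.4% (21.3 to 40.9) from 501 to 1000 and 19.0% (17.1 to 21.1) beyond 10000. The best regions of IV were thus found again most often.

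On the other autosomes pooled, 43.2% (37.7 to 48.7) of the 500 best of replicate 1 and 44.8% (39.4 to 50.4) of the 500 best of replicate 2 had a counterpart. IV lay below both values, and its intervals overlap theirs. Beyond order 5000 IV and the other autosomes differed by less than their intervals in both replicates, for example 11.5% and 11.5% beyond 20000 in replicate 1.

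**Figure D3:**
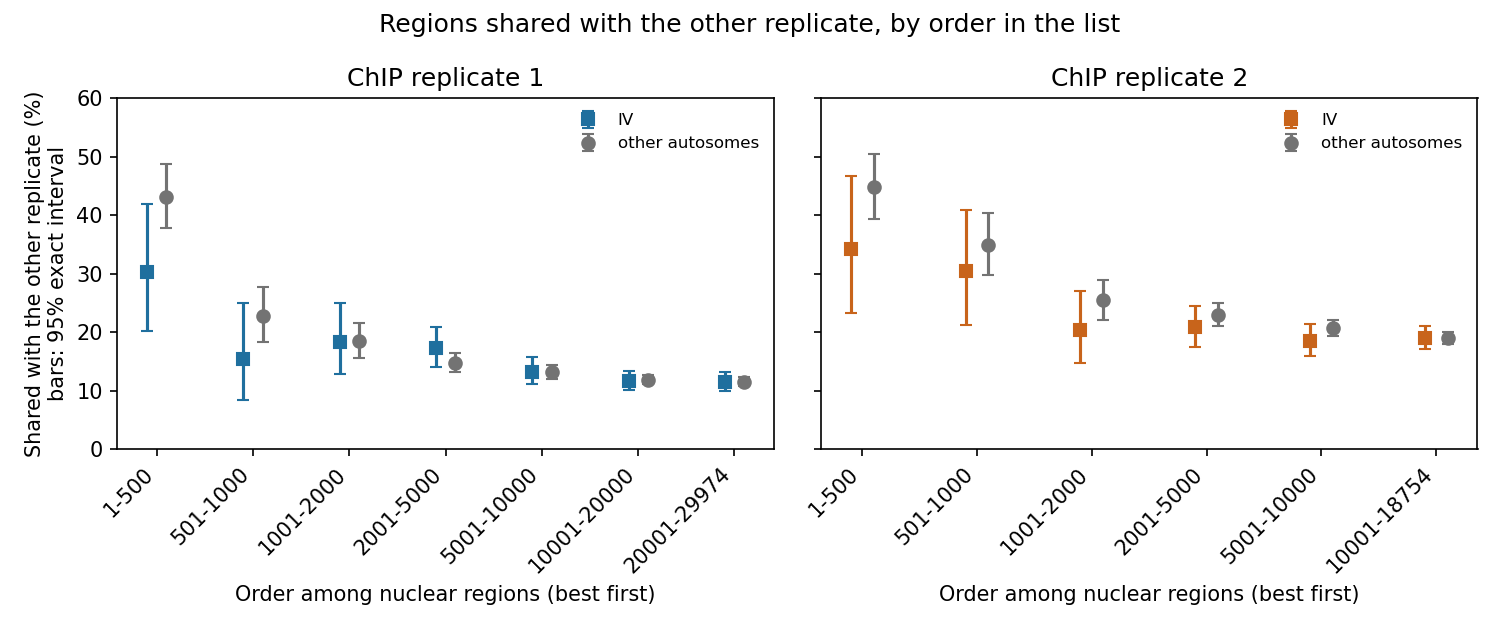
Share of regions (%) with a counterpart in the other replicate, by order within the replicate's own list, for IV (squares) and for the other autosomes together (circles), with 95% exact intervals. IV is at 30.3% and 34.3% in the 500 best, below the 43.2% and 44.8% of the other autosomes with overlapping intervals, and both come together further down.

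When both lists were restricted to their best regions, few sites of IV remained. Among the 50 best of each list 1 of the 6 shared autosomal sites was on IV, among the 113 best 4 of 14 (28.6%), among the 200 best 4 of 26 and among the 500 best 6 of 54 (11.1%). At the 113 best IV and I had the most shared sites, 4 each, and those of IV were 36.4% of its 11 regions in each replicate, so the share of IV moved with the length of list taken. Among the 1000 best 12 were shared, 14.3% of the 84 on the autosomes, and among the 5000 best 64 of 375, or 17.1%. The 4 sites shared by the 200 best were combined regions 22, 18, 34 and 16.

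The 12 sites shared by the 1000 best held all 7 combined regions and 5 more. If the combined list rests on these replicates, the presence of its 7 sites here follows in part from their selection. Region 201 of replicate 1, between 4660322 and 4660725, met number 597 of replicate 2 and lay 89.5 kb from combined region 16. Region 224 of replicate 1, between 17249647 and 17250050, met number 161 of replicate 2, close to the right end of the span. Its numbers in the replicates were both lower than those of combined region 76, and it was not in the combined list. Region 386, between 390238 and 390641, met number 723. These 3 sites were at the ceiling in both replicates, as the combined regions were.

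The other 2 sites, region 748 between 12391119 and 12391522 and region 934 between 13328942 and 13329345, met numbers 548 and 933 of replicate 2. They were at the ceiling in replicate 2 only, with scores of 1.81 and 1.70 in replicate 1. By segment, from left to right, the 12 sites numbered 6, 2 and 4, so the right segment held 3 shared sites beyond combined region 22. Which rule admitted sites to the combined list is not stated.

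**Figure D4:**
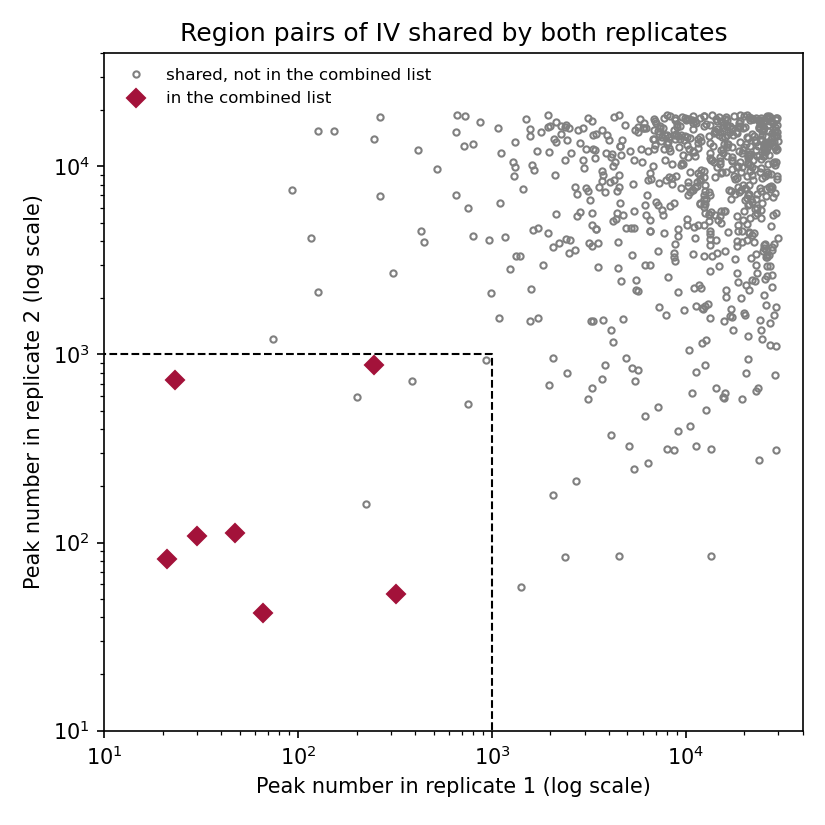
Peak number in replicate 1 (x axis, log scale) against peak number in replicate 2 (y axis, log scale) for each pair of overlapping regions on IV; diamonds are the sites of the combined list. Inside the dashed box, numbers up to 1000 in both replicates, are the 7 diamonds and 5 other sites, and most of the 710 pairs lie at high numbers in both lists.

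The best shared sites of IV were also the most exactly placed. Over the 12 pairs within the 1000 best the midpoints of the replicates were a median of 29 bp apart (middle 50% of values 9.25 to 93.0), and 10 of 12 were within 100 bp. Over all 710 overlapping pairs of IV the median was 119 bp, and 44.6% were within 100 bp. On the other autosomes the medians were 60 bp over 74 pairs within the 1000 best and 112 bp over all 2826 pairs. The overlap rule itself limits how far apart the midpoints can be.

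Crowding of regions was measured by window. Midpoints of regions were counted in windows of 25 kb, and a window was called dense when it was among the top 5% of autosomal windows of that replicate, ties included, which meant at least 13 regions in replicate 1 and at least 9 in replicate 2. With the ties, 7.39% of autosomal windows were dense in replicate 1, 7.63% in replicate 2 and 1.85% in both. Of the 699 windows of IV, 44 (6.29%) were dense in replicate 1, 53 (7.58%) in replicate 2 and 16 (2.29%) in both. These shares are near those of all autosomes. The median window of IV held 7 regions of replicate 1 and 4 of replicate 2.

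None of the 16 windows dense in both replicates, 2.29% of the windows of IV, held a combined region. With 7 combined regions on IV, a count of 0 allows a share of up to 41.0% (95% exact interval). On the other autosomes 10 of 80 combined regions (12.5%, 6.16 to 21.8) lay in such windows, so no difference could be shown with 7 regions. In windows dense in replicate 2 alone or in both there were 2 of the 7 (28.6%), against 25% of the combined regions of the other autosomes. Windows dense in replicate 1, alone or in both, held 0 of the 7. On the other autosomes they held 17 of 80 (21.25%, 12.9 to 31.8), which lies within the interval of IV, up to 41.0%. The windows of the 7 regions held between 7 and 11 regions of replicate 1 and between 3 and 10 of replicate 2. Those of regions 82 and 22, with 10 and 9 regions, were dense in replicate 2 only.

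The combined regions also differed in their close surroundings. Within 5 kb of the midpoint of region 24 there were 2 regions in each replicate, its own counterpart included. The next nearest was 4.36 kb away in replicate 1 and 4.86 kb away in replicate 2. Around region 82 there were 7 in each replicate, and around region 22 there were 7 and 8. Around region 34 the replicates differed, with 7 regions in replicate 1 and 2 in replicate 2. Taking both replicates, regions 24 and 76 were the most isolated sites, and regions 82 and 22 the most crowded.

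The densest window of IV, from 3850001 to 3875000, held 25 regions of replicate 1 and 26 of replicate 2, more than any other window of the 5 autosomes in either replicate. The highest counts elsewhere were 23 in replicate 1, on V, and 17 in replicate 2, on II. The regions covered 37.9% of the window in replicate 1 and 44.3% in replicate 2. Its neighbours, with 17 and 11 regions in replicate 1 and 5 and 5 in replicate 2, were less dense, so in replicate 2 the high count was limited to this window.

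In this window 12 of the 25 regions of replicate 1 and 13 of the 26 of replicate 2 were shared. Over all of IV 13.0% and 19.9% were. With 37.9% and 44.3% of the window covered, overlaps come more easily there, and the part of coverage in these counts was not tested. The score ceiling was reached by 8 regions of replicate 2, among them numbers 84 and 95, but by 1 region of replicate 1, number 226, between 3856651 and 3857054. None of the window's overlapping pairs was at the ceiling in both. The closest pairs were region 2379 with region 84 and region 12940 with region 1848, each with midpoints 2 bp apart. No combined region lay in this window.

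The other dense windows of IV were less extreme. In replicate 1 the next were 3750001 to 3775000, 3825001 to 3850000 and 14725001 to 14750000, with 17 regions each, and 4450001 to 4475000 with 16, the first along the chromosome of those tied at 16. In replicate 2 they were 7825001 to 7850000 with 16 regions, 14725001 to 14750000 with 15, and 3675001 to 3700000 and 11100001 to 11125000 with 14 each. The window at 14725001 was thus among the densest in both replicates, and it held no region at the ceiling in replicate 1 and 2 in replicate 2. From the left to the right segment, windows dense in replicate 1 numbered 23, 8 and 13, those dense in replicate 2 numbered 12, 17 and 24, and those dense in both numbered 3, 6 and 7. Dense windows were thus most numerous in the left segment for replicate 1 and in the right segment for replicate 2. Each replicate nevertheless had dense windows in all 3 segments, and 16 of its 44 or 53 dense windows were dense in both. These counts carry no interval.

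**Figure D5:**
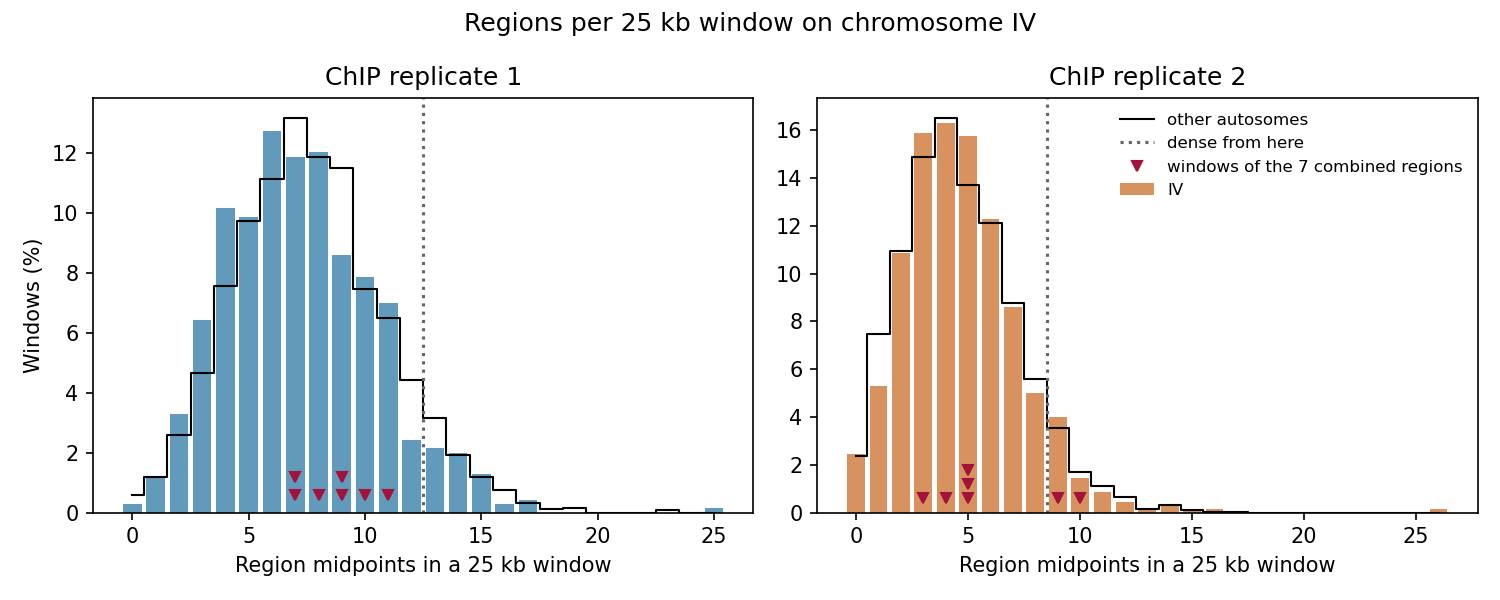
Distribution of the number of region midpoints per 25 kb window (x axis) as a share of windows (%), for IV (bars) and the other autosomes (line); triangles are the windows that hold the 7 combined regions. The triangles lie at 7 to 11 regions in replicate 1 and 3 to 10 in replicate 2, and the lone bars at 25 and 26 are the densest window of IV.

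Inside the 16 windows dense in both, regions were shared more often than in the rest of IV. In replicate 1, 60 of 238 regions were shared there (25.2%, 19.8 to 31.2), against 12.4% (11.5 to 13.4) in the other windows. In replicate 2 the shares were 33.3% (26.6 to 40.6) and 19.1% (17.8 to 20.6). The bases covered also differed, 22.2% inside against 10.96% outside in replicate 1 and 20.1% against 8.25% in replicate 2. The density of regions thus moved with the share, and its part in the difference was not tested. Without the densest window the shares inside were 22.5% (17.1 to 28.7) and 30.6% (23.6 to 38.4).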

How the data were processed

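The labels give 2 ChIP and 2 input samples; the inputs were not analysed here. Per the labels' protocols, larvae were fixed in formaldehyde (2%), and the GFP tag was precipitated from sonicated chromatin. The authors deposited 3 lists of regions with a score per region. Per the file headers they are on WormBase WS220, and the method field names SPP followed by IDR. The aligner, tool versions and thresholds, and how the combined list was made, are not stated in these sources. Replicate lists were called per sample.

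The members and analyses were chosen with earlier results of these data known. Regions were ordered by peak number, since scores are tied at a ceiling. A chromosome's span runs between the outermost regions of the 3 lists, and IV was divided into 3 equal segments. Shared regions overlap by at least 50% of the shorter. Named were all combined IV regions, the 10 lowest-numbered IV regions of each replicate, IV sites shared by the 200 best and the 5 densest IV windows; the other IV sites shared by the 1000 best were named after their values were seen. Shares carry 95% Clopper-Pearson intervals. Counting steps were tested on simulated data. Python 3.11.15, numpy 2.4.6, pandas 2.3.3, scipy 1.17.1 and matplotlib 3.10.9 were used.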

Additional observations from a re-analysis of the deposited data

How the results depend on the processing

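Across 37 alternatives for 9 results, 17 values stayed within the 95% interval of the value reported or, for counts, within 1.5 times it, and 20 did not. The share of IV among autosomal combined regions stayed below the span share in all 4 alternatives. It ranged from 12.8% to 13.9% in the best regions of a single replicate, and was 14.7% in the lowest-numbered 50% of the list, over 1.5 times the 8.05% reported, and the intervals of these 3 values hold the span share. With regions within 10 kb merged it was 8.54% (3.50 to 16.8), which does not reach it. For regions of replicate 1 and of replicate 2 in turn, the shared share was 20.6% and 31.5% when a single shared base sufficed, 6.25% and 9.62% when midpoints had to lie within 100 bp, 8.29% and 13.3% in the lowest-numbered 50% of each list, and 20.8% and 4% for regions at the score ceiling. The middle segment held 35.8% of the IV regions of replicate 2 among the 1000 best. Windows of IV dense in replicate 1, in replicate 2 and in both numbered 166, 98 and 25 with 10 kb windows, 18, 23 and 5 with 50 kb windows, and 6, 9 and 2 at the densest 1%. Shared IV sites numbered 6 among the 500 best and 64 among the 5000 best, against 12. Window size, list length and overlap rule change these values by construction. The alternatives by bins of order and without the densest window were chosen after seeing the data. No paired analysis was possible because the inputs were not analysed here and the ChIP replicates form 1 group. Read depth is unknown, and 7 combined regions limit every share among them.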

Other observations

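Of the 16 windows of IV dense in both replicates, 4 lay between 11000001 and 11150000, a stretch picked after its values were seen. The windows starting at 11000001, 11025001, 11100001 and 11125001 held 13, 13, 15 and 15 regions of replicate 1 and 12, 10, 14 and 12 of replicate 2. The lowest peak numbers there were 117 in replicate 1 and 213 in replicate 2, and no combined region lay in them. In the window from 13375001 to 13400000, also picked after its values were seen, 8 of 14 regions of replicate 1 and 8 of 12 of replicate 2 were shared. Over all 16 windows dense in both, the shares were 25.2% and 33.3%.

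Peak numbers of the replicates were weakly related over the overlapping pairs of IV (Spearman's rho 0.118 across 710 pairs, which are not independent). On the other autosomes rho ran from 0.0943 on V to 0.199 on I. Counts per 25 kb window of the replicates gave a rho of 0.313 across the 699 windows of IV, and from 0.298 to 0.379 elsewhere.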
